A study of Mus musculus with 27 samples.

Results

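A set of 8 genes of the mineralising bone matrix and of osteocytes was followed, namely 4 genes of the SIBLING family (Spp1, Ibsp, Dmp1 and Mepe) and 4 further genes used as osteocyte markers (Phex, Sost, Fgf23 and Pdpn). They were taken by name, the rule setting no measured value, though with earlier results of these data known, and make up 8 of the 37991 genes in the deposited tables. All of the 8 symbols matched an Ensembl gene identifier. The cells were taken from the calvaria, or skull roof, of C57BL/6J mice aged 5 to 9 days that carried cyan fluorescent protein under the Col3.6 promoter, a fragment of the type I collagen promoter. After 4 days of growth, cells positive for the protein were sorted, plated again and cultured with ascorbic acid and β-glycerol phosphate, and RNA was collected on days 2, 4, 6, 8, 10, 12, 14, 16 and 18. Every group therefore had the same strain, transgene and medium, and differed from the others only in the day. The transgene marks cells with an active collagen promoter and not osteocytes, and the number of animals behind the cultures was not stated in the sources used here. The purpose of the series was to follow expression from the pre-osteoblast to the mature osteoblast.

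Each day had 3 profiles, which carried 1 barcode and came from 3 sequencing lanes. The methods of the study describe the profiles of a day as replicate samples. Because of the shared barcode they were here counted as 1 sample, which leaves no replicate at any day, and on this reading the SD given beside a mean reflects only lane and quantification error. The summed profiles of a day held 22470195 (day 10) to 62009157 (day 12) estimated counts, the number of reads assigned to genes after shared reads are divided. Levels are given in TPM (transcripts relative to all transcripts of a library, which corrects for transcript length) after upper-quartile normalisation, and counts also as CPM (counts relative to the library total, with no such correction). As markers of the labelled cell type, the collagen genes Col1a1 and Col1a2 were at 983 TPM or more on every day. Runx2, the master transcription factor of the osteoblast lineage, was between 42.0 and 65.7 TPM. Other osteoblast markers were not steady. Alpl was at 9.13 TPM on day 2 and 0.467 TPM on day 6, and Sp7 at 32.3 TPM on day 2 and 2.77 TPM on day 8. The osteocalcin genes Bglap and Bglap2 were at 1.24 and 0.795 TPM on day 2 and at 0.224 and 1.76 TPM on day 4. Markers of other cell types were also measured. The 7 monocyte and macrophage markers together summed to 24.1 TPM on day 2 and 2014 TPM on day 18, and the 5 adipocyte markers to 7.44 and 407 TPM. In a bulk sample, fewer cells of a type and less RNA per cell cannot be told apart.

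The SIBLING proteins (small integrin-binding ligand, N-linked glycoproteins) are acidic, heavily phosphorylated secreted proteins that bind integrins on cells and calcium in the mineral. Osteopontin (Spp1) is made by many cell types, macrophages included, and inhibits mineral growth, whereas bone sialoprotein (Ibsp) is made mainly where matrix mineralises. Dmp1 and Mepe mark cells that are becoming embedded, and Phex is an endopeptidase of the cell membrane whose loss raises Fgf23 and wastes phosphate. Sclerostin (Sost), a Wnt antagonist, and Fgf23, the phosphate-lowering hormone, are products of mature osteocytes, and podoplanin (Pdpn, also called E11) is linked to the first cell processes of an embedding osteocyte.

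The genes of the SIBLING family lie in 1 cluster on chromosome 5 of NCBIM37, the build of the deposited tables. With Dspp, the dentin gene of the family, the cluster spans 270339 bp, from 104599731 to 104870069, and all of its genes are on the plus strand. From left to right, Dspp is followed by Dmp1 (ENSMUSG00000029307, 104631632 to 104643121), Ibsp (ENSMUSG00000029306, 104728190 to 104740488), Mepe (ENSMUSG00000053863, 104754348 to 104767630) and Spp1 (ENSMUSG00000029304, 104864137 to 104870069). The other members are scattered. Pdpn (ENSMUSG00000028583) is on chromosome 4 from 142857334 to 142889467, Fgf23 (ENSMUSG00000000182) on chromosome 6 from 127022920 to 127031426, Sost (ENSMUSG00000001494) on chromosome 11 from 101823772 to 101828329 and Phex (ENSMUSG00000057457) on chromosome X from 153596618 to 153853244.

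The bases before the transcription start of the SIBLING genes are shown because these neighbours followed different courses over the days. They were taken from RefSeq windows (GRCm38.p6) and placed in NCBIM37 by an exact match, which was found once for each of the 10 windows of the 8 genes. For Spp1 (chr5:104863880-104864129), Dmp1 (chr5:104631386-104631635) and Mepe (chr5:104754098-104754347) the 250 bases before the start are given, and for Ibsp, whose annotated gene begins 116 bases before the RefSeq start, a stretch of 30 bases (chr5:104728240-104728269). All are on the plus strand. Capitals mark the letters ACCACA or TGTGGT, the core bound by RUNX factors, and CCAAT or ATTGG, the CCAAT box, searched on both strands.
Spp1: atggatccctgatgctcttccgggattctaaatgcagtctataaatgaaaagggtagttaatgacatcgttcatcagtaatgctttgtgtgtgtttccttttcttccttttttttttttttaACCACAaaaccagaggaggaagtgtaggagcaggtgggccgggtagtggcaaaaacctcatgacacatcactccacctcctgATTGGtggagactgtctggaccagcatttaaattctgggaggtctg
Dmp1: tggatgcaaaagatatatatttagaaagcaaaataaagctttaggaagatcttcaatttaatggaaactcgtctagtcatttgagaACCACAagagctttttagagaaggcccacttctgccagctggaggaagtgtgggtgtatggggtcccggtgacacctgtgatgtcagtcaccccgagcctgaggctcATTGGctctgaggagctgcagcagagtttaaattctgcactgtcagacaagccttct
Mepe: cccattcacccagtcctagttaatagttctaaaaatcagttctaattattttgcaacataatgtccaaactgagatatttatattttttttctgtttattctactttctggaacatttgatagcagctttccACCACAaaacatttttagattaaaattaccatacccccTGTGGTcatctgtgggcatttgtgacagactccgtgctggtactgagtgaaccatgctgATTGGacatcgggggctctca
Ibsp: gccacagctgtgATTGGctgttgagaggcg
The letters of an inverted CCAAT box lay 46 to 42 bases before the start in Spp1, 54 to 50 in Ibsp, 57 to 53 in Dmp1 and 21 to 17 in Mepe. A further Dmp1 start of RefSeq, upstream of the annotated gene, had them at 101 to 97 bases, so that 5 of the 6 windows of these genes held them, against 33.8% of 32851 windows of all genes. The RUNX core was found in 1 window each of Spp1 and Dmp1 and at 2 places in Mepe (3 of 6 windows, against 14.0% of all), and not in the Ibsp window. The letters TTTAAA, the same on both strands, were in 6 of the 10 windows of the 8 genes and in 12.1% of all. The 6 were windows of Spp1, Dmp1, Phex, Sost, Fgf23 and Pdpn. Of the 6 windows of the SIBLING genes, 2 held TTTAAA. Over the 10 windows, the CCAAT letters were in 6 and the RUNX core in 3. The motifs were chosen after these sequences had been read. The CCAAT letters were shared by genes with a high early level (Spp1), a late rise (Ibsp, Dmp1) and hardly any reads (Mepe). They were not particular to the cluster, since Sost, on chromosome 11, had them 56 to 52 bases before the start.

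The 8 genes fell into 3 courses. Spp1 and Pdpn were abundant from the first day, highest on days 4 and 6 and lower afterwards. Phex, Dmp1 and Ibsp were under 1 TPM up to day 6 and highest on day 18. Sost, Fgf23 and Mepe never reached 1 TPM. With 1 TPM or more taken as expressed, the number of expressed members was 2 up to day 6, 3 on day 8, 4 on day 10 and 5 from day 12 onward.

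**Figure D1:**
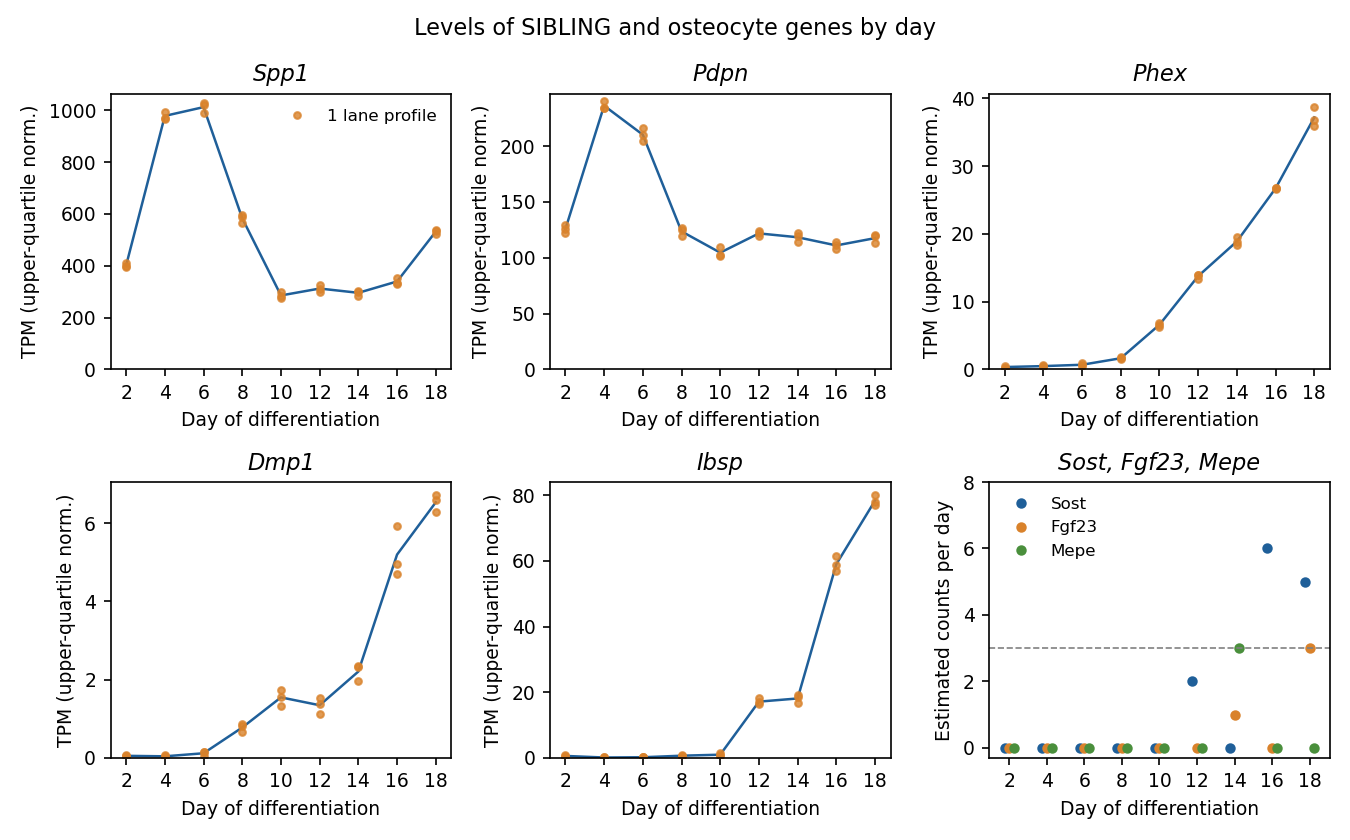
Level by day (x axis) of the 5 detected genes in TPM after upper-quartile normalisation (points, the 3 lane profiles of a day; line, their mean) and, in the last panel, the summed estimated counts of Sost, Fgf23 and Mepe with a dashed line at the floor of 3 counts. Spp1 and Pdpn peak on days 6 and 4, Phex, Dmp1 and Ibsp on day 18, and Sost has at most 6 counts.

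A straight line in day was fitted to the 9 summed libraries with edgeR's quasi-likelihood test over 15659 genes. Its change is the fitted log2 change from the first to the last day, and adjusted p-values (Benjamini-Hochberg) run over all of these genes. The fit took in 5 of the 8 members, since Sost, Fgf23 and Mepe did not pass the filter on low counts. Of the 5, 3 rose, where 28.3% of all genes tested rose, and 1 fell, where 26.1% of all genes fell (54.3% in either direction). A slope in day was thus common in this series, and all counts of genes that rose or fell in the lists below are to be read beside these shares. By size, the fitted change of Ibsp lay above that of 99.8% of the genes tested, that of Phex above 99.4% and that of Dmp1 above 98.7%. The median change over all genes was 0.05. These ranks are a description and rest on few early reads. On days 2, 4 and 6 Dmp1 had 4, 3 and 9 counts and Ibsp 30, 5 and 9, at or near the floor of 3 counts on several of them.

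Spp1, osteopontin, was by far the most abundant member. In order of day, from 2 to 18, its mean level was 402, 979, 1012, 583, 285, 312, 295, 339 and 532 TPM, with an SD over the 3 profiles of 7.37 to 19.7 TPM. It was high on days 4 and 6, lowest from day 10 to day 16 and higher again at the end. In counts scaled to depth, day 4 stood at 2.34 times day 2 (exact 95% interval 2.29 to 2.39) and day 10 at 0.284 times day 6 (0.276 to 0.294). Day 18 stood at 1.64 times day 10 in counts (1.59 to 1.70) and at 1.86 times in TPM. Each of these ratios compares a pair of libraries, and its interval covers counting error only.

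The straight line described this course poorly. The fitted change of Spp1 was -1.17 (SE 0.54) and did not pass (edgeR adjusted p = 0.0932). A natural spline in day, which tests for any smooth change and called 57.5% of 16256 genes, passed for Spp1 (edgeR adjusted p = 0.000421). Days 14 to 18 were lower than days 2 to 6 by a fitted log2 difference of -1.09 (SE 0.35, edgeR adjusted p = 0.0301), in a comparison that called 51.8% of 15148 genes. The line itself passed when either end was left out, with -1.93 without day 18 (edgeR adjusted p = 0.0248) and -1.57 without day 2 (edgeR adjusted p = 0.0362).

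The late gain of Spp1 coincided with higher macrophage markers. Over days 14, 16 and 18, Spp1 was at 295, 339 and 532 TPM and the sum of the 7 markers at 522, 877 and 2014 TPM. Lyz2, the lysozyme of myeloid cells, made up most of that sum, with 1855 TPM at the end. Cd68, a lysosomal protein of macrophages, was at 1.79 and 114 TPM at the start and the end, and 6 of the 7 markers rose in the line in day. On days 4 and 6, when Spp1 was highest, the sum was 36.5 and 61.7 TPM. On day 2, with Spp1 at 402 TPM, it was 24.1 TPM. Among 7 osteoclast markers, with sums of 37.6 to 219 TPM, 5 were tested and 4 rose. Ctsk, at 36.5 to 199.6 TPM, made up most of their sum. Acp5, the tartrate-resistant phosphatase, rose from 0.618 to 16.8 TPM. Atp6v0d2, a proton pump subunit, rose from 0.0129 to 3.43 TPM, but was at 3.84 TPM on day 10 and 0.835 TPM on day 12. Calcr and Dcstamp had 0 counts in all profiles. The part of these cells in the Spp1 level was not tested.

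Pdpn, podoplanin, had a course of similar shape at a lower level. In order of day it stood at 126, 236, 210, 124, 104.6, 122, 118, 111 and 118 TPM (SD over the 3 profiles 2.33 to 5.82). Days 4 and 6 stood above all other days, and from day 8 onward the level stayed between 104.6 and 124 TPM. The line fell by 0.98 (SE 0.28, edgeR adjusted p = 0.0130), and days 14 to 18 were below days 2 to 6 by a fitted difference of -0.83 (SE 0.18, edgeR adjusted p = 0.00670). Without day 4 the line fell by 0.67, just inside the threshold (edgeR adjusted p = 0.0497). Day 18 stood at 0.935 times day 2 in TPM and 0.740 times in counts (exact 95% interval 0.708 to 0.772). The late gain of Spp1 was not seen in Pdpn counts, where day 18 was at 0.947 times day 10 (0.896 to 1.00), although the ratio in TPM was 1.12.

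Podoplanin also marks lymphatic endothelium. Of 6 endothelial and lymphatic markers, 5 were tested, 2 rose and 3 fell, and their sum was between 2.29 and 5.30 TPM. Cdh5, the cadherin of endothelial junctions, reached at most 3.13 TPM, Lyve1 0.971 TPM and Prox1, the transcription factor that defines lymphatic endothelium, 0.636 TPM. Flt4, a receptor of lymphatic vessels, was at 2.79 TPM on day 2 and 0.190 TPM on day 18. The part of these cells in the Pdpn level was not tested.

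Phex was the first of the late genes to reach 1 TPM. In order of day its mean level was 0.338, 0.476, 0.675, 1.64, 6.59, 13.8, 18.9, 26.7 and 37.2 TPM. Every mean lay above the one before it, though the steps up to day 6 were within counting error. The summed counts of days 2, 8, 10 and 18 were 38, 153, 597 and 5925, so that the early values rest on few reads. Among steps between neighbouring days the largest was from day 8 to day 10, by 5.17 times in counts (exact 95% interval 4.32 to 6.22). The line rose by 8.23 (SE 0.76, edgeR adjusted p = 3.5e-05), the smallest adjusted p of the 5 members tested.

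The estimated length of the Phex transcripts differed between early and late days. RSEM reports a mean length weighted by the abundance of the isoforms, and for Phex this was 4383 ± 969 (SD over 3 profiles), 4736 ± 961, 4430.5 ± 968 and 4831 ± 313 bases at the first 4 time points. At days 10 and 12 it was 6265 bases, the length of the 22-exon transcript, and afterwards it was between 6117 and 6202. The annotation also holds a transcript of 2201 bases and a single-exon transcript of 3588 bases. Early reads were thus in part assigned to shorter transcripts, at 38 to 153 counts a day. Since TPM divides by this length, the ratio of the last to the first day was 110 in TPM and 148 in counts (exact 95% interval 108 to 210). The length of Spp1 (1268 to 1298 bases) and Pdpn (1449 to 1579 bases) varied less, and the other members have 1 annotated transcript.

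Dmp1 rose in 2 stages. In order of day its mean level was 0.0512, 0.0387, 0.117, 0.776, 1.55, 1.35, 2.21, 5.20 and 6.54 TPM. The summed counts behind these values were 4, 3, 9, 40, 58, 120, 154, 396 and 437. From day 6 to day 10 the counts scaled to depth rose 12.4 times (exact 95% interval 6.09 to 28.4), and days 10 and 12 did not differ beyond counting error (0.750 times, 0.544 to 1.04). A further rise followed, by 1.76 times to day 14 (1.38 to 2.26) and by 2.30 times from there to day 16 (1.90 to 2.79). The line rose by 6.79 (SE 0.75, edgeR adjusted p = 7.99e-05). At its highest, Dmp1 remained below Phex and Ibsp, which were at 37.2 and 78.4 TPM on the same day.

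Ibsp, bone sialoprotein, had the largest change of the members tested when a straight line was fitted. In order of day its mean level was 0.581, 0.0965, 0.175, 0.650, 0.958, 17.1, 18.1, 59.0 and 78.4 TPM. It was under 1 TPM for 5 time points and then rose in steps, between days 10 and 12 and between days 14 and 16. The counts were 26 on day 10 and 1097 on day 12, a rise of 15.3 times when scaled to depth (exact 95% interval 10.4 to 23.5), followed by little change to day 14 (1.13 times, 1.04 to 1.24). The next step, to day 16, was 3.19 times (2.97 to 3.44). The line rose by 9.55 (SE 1.15, edgeR adjusted p = 0.000118). With the spline, the fitted change from the first to the last day was 7.23, below the 8.34 of Dmp1 and the 7.40 of Phex. In counts scaled to depth, day 18 stood at 120 times day 2 (exact 95% interval 83.6 to 177).

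Day 2 was not the lowest day of Ibsp. With 30 counts on day 2 and 5 on day 4, the ratio scaled to depth was 0.167 (exact 95% interval 0.0505 to 0.434), a fall beyond counting error. Dmp1 had 4 and 3 counts on those days (0.750 times, 0.110 to 4.43), too few to show such a fall, and Phex had 38 and 57. Ibsp is also made in hypertrophic cartilage, and the 5 cartilage markers had sums of 92.6 to 135 TPM. Of the 4 tested, 2 rose and 1 fell. Col2a1, the collagen of cartilage, was at 111 TPM on day 2 and 47.8 TPM on day 18 and Sox9, its transcription factor, at 16.8 and 45.0 TPM, while Col10a1, which defines the hypertrophic cell, reached at most 1.12 TPM. Their part in the Ibsp level was not tested.

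**Figure D2:**
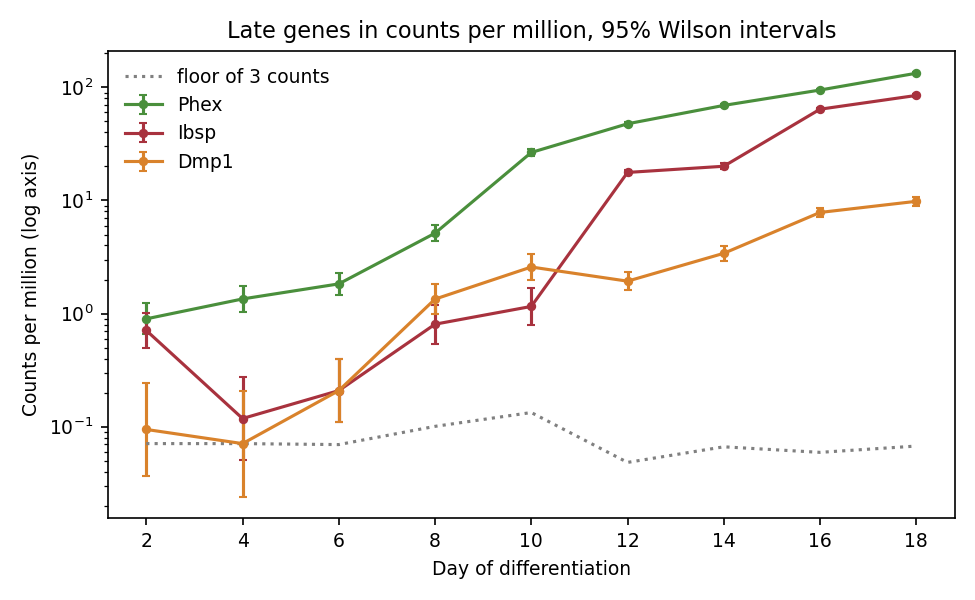
Phex, Ibsp and Dmp1 as summed counts scaled to library depth (CPM, y axis, log scale) against day, with 95% Wilson intervals for counting error and the floor of 3 counts as a dotted line. Phex climbs from 0.899 to 133, Ibsp falls between days 2 and 4 and steps up on day 12, and Dmp1 pauses between days 10 and 12.

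The onset of a gene was set as the first day with a mean of at least 1 TPM that was held on every later day. Spp1 and Pdpn were past it on day 2, Phex reached it on day 8, Dmp1 on day 10 and Ibsp on day 12, and Sost, Fgf23 and Mepe had none. Of the 15360 genes that reached 1 TPM on any day, 73.4% had their onset on day 2, and days 8, 10 and 12 were the onset of 1.39%, 1.76% and 1.30%. The order of Dmp1 and Ibsp depended on the threshold and unit. At 0.5 TPM both had an onset on day 8, whereas at 2 and 5 TPM Ibsp kept day 12 and Dmp1 moved to days 14 and 16, so that Ibsp came first. With FPKM as deposited, Dmp1 was also placed on day 14. Ibsp had missed 1 TPM on day 10 with 0.958 ± 0.507 TPM (SD over 3 profiles) from 26 counts, and with TPM as deposited, or without replicate 1 or replicate 2 of each day, it shared day 10 with Dmp1.

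A further measure, added after the data had been seen, took the first day from which every 95% Wilson interval of the counts lay above those of all earlier days. By this measure Phex and Dmp1 had an onset on day 8 and Ibsp on day 12. Measured against its own highest day, each gene first reached 50% on day 2 for Pdpn, day 4 for Spp1, day 14 for Phex and day 16 for both Dmp1 and Ibsp. In CPM scaled by TMM factors, another normalisation, Phex reached 50% on day 16 as well. With 1 library a day, the order of the genes has no replicate error and was not tested.

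**Figure D3:**
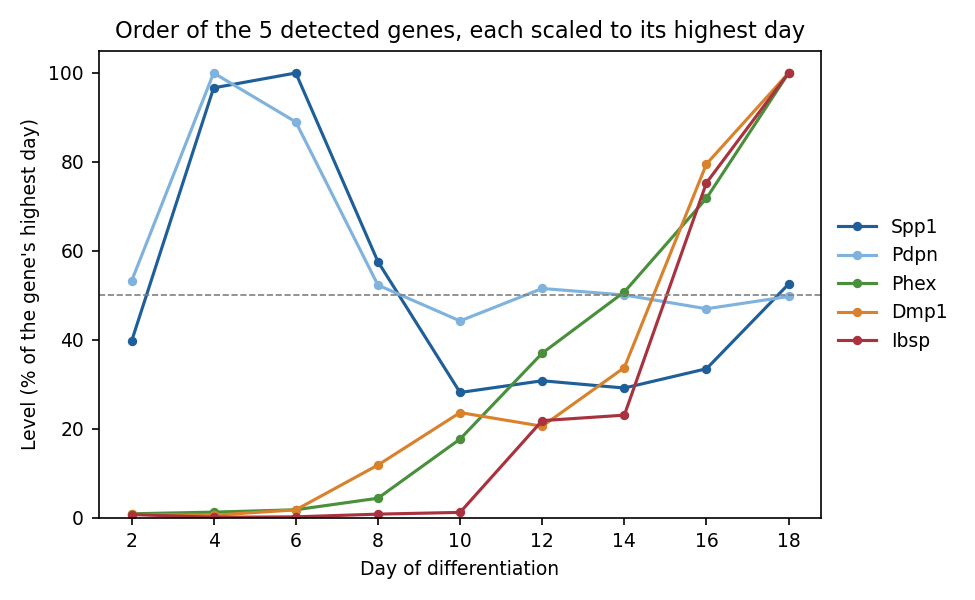
Level of the 5 detected genes against day, each as a percentage of its own highest day in TPM after upper-quartile normalisation, with a dashed line at 50%. Pdpn is above the line on day 2 and Spp1 on day 4, Phex crosses it by day 14, and Dmp1 and Ibsp by day 16.

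Sost, Fgf23 and Mepe were hardly detected. Sost had 2, 6 and 5 counts on days 12, 16 and 18 and 0 on every other day. Fgf23 had 1 count on day 14 and 3 on day 18, and Mepe had 3 counts on day 14, with 0 on every other day for both. The 13 Sost counts were thus all late, and days 16 and 18 were above the floor of 3 counts. On day 16 Sost was at 0.119 CPM (95% Wilson interval 0.0544 to 0.259), which overlaps the interval of day 2, where 0 counts reach up to 0.0909 CPM. The floor was between 0.0484 CPM on day 12 and 0.134 CPM on day 10, and expression below it was not detectable at this depth. Dspp, the remaining gene of the family, had 2 counts on day 2 and 0 on all other days.

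Within the SIBLING family the make-up changed with time. In TPM, Spp1 held 99.8% of the summed level of the 5 genes on day 2 and 99.1% on day 10. Its share then went to 94.4, 93.5, 84.1 and 86.2% over the last 4 time points. Ibsp took up most of the difference, with 0.333% on day 10, 5.18% on day 12 and 14.6% on day 16. Dmp1 held at most 1.29%, on day 16. Per TPM of Dmp1 there were 11.3, 2.50 and 1.50 TPM of Ibsp on days 2, 4 and 6, from only 4, 3 and 9 Dmp1 counts. On days 8 and 10 there were 0.838 and 0.619 TPM, from 24 and 26 Ibsp counts and with lane SDs that overlap. From day 12 onward there were 8.19 to 12.7 TPM, so that the ratio was not lowest at the start.

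Genes around the cluster were mixed in direction. Within 500 kb on either side the annotation lists 20 other genes, of which 10 were tested, 2 rose and 2 fell. Over all genes tested, 28.3% rose and 26.1% fell. Sparcl1, a matricellular protein gene near Dspp, rose by 5.30 (SE 1.09, edgeR adjusted p = 0.00215), from 0.301 to 13.9 TPM between the first and last day. Hsd17b11, a steroid dehydrogenase, rose by 1.23 (edgeR adjusted p = 0.000553), and Aff1, a transcription elongation factor, fell by 1.23 (edgeR adjusted p = 0.000249). Pkd2, a cation channel gene near Spp1 at 63.7 TPM on average, had a fitted change of 0.12 (SE 0.14, edgeR adjusted p = 0.489).

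The genes most like each member over the 9 days were sought among 13214 genes with a mean of at least 1 TPM. Likeness was the root mean square difference of the log2 profiles, each centred on its mean, so that smaller values mean closer courses. The courses nearest to Phex were those of Ntrk2 (0.14), Cygb (0.22) and Apoe (0.25), and those nearest to Dmp1 were Pf4 (0.18), Lmo2 (0.22) and Adamts15 (0.26). Nearest to Ibsp were Plin1 (0.41), Fabp4 (0.42) and Gpd1 (0.45), the first pair of which are on the list of adipocyte markers. For Spp1 they were Adcy7 (0.20), Kcnk2 (0.22) and Apoa2 (0.25), and for Pdpn Btbd11 (0.13), Gm10116 (0.13) and Lbh (0.16). Between members, Spp1 and Pdpn were closest (0.37), followed by Dmp1 and Phex (0.89) and Ibsp and Phex (1.02), while Ibsp and Spp1 were farthest apart (3.11). The distance grows with the size of the changes, so it was also read against other genes. Of the genes compared, 24.3% were nearer to Pdpn than Spp1 was, 9.76% nearer to Dmp1 than Phex was and 0.257% nearer to Ibsp than Phex was. Read from Pdpn, Dmp1 and Ibsp, the order of these pairs was thus reversed. The share read from the other gene of each pair was not computed and can differ.

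The 5 adipocyte markers all rose, with sums of 3.21 to 407 TPM. Between days 10 and 12, when Ibsp stepped from 0.958 to 17.1 TPM, Fabp4, a fatty acid carrier, stepped from 4.43 to 48.3 TPM, Adipoq, adiponectin, from 1.13 to 16.98 TPM and Plin1, a lipid droplet protein, from 0.732 to 8.99 TPM. Pparg, the regulator of fat cell formation, was at 13.5 and 27.3 TPM on these days. The part of that cell type in the Ibsp level was not tested.

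The receptors of the SIBLING proteins were mixed in direction. Of 9 receptor genes, all tested, 4 rose and 4 fell, beside 28.3% and 26.1% of all genes tested. Their median change was 0.47 against 0.05 over all genes. Cd44, the hyaluronan and osteopontin receptor, fell by 4.20 (SE 0.41, edgeR adjusted p = 4.68e-05), from 807 to 73.2 TPM between the first and last day. The integrin subunits Itgb1, at 805 and 278 TPM, and Itgav, at 132 and 77.1 TPM, fell too, whereas Itgb5, at 44.8 and 113 TPM, rose. Cd44 and Itgb1 were highest on day 2, before the peak of Spp1 on day 6.

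Of 9 genes for enzymes that modify or cut SIBLING proteins, 6 rose and none fell, beside 28.3% and 26.1% of all genes tested. Their median change was 0.73. Mmp2, a matrix metalloproteinase, rose from 222 to 495 TPM and Bmp1, the procollagen protease that also cleaves Dmp1, from 51.4 to 85.2 TPM. Bmp1 was already at 86.1 TPM on day 4, and it did not pass with the spline (edgeR adjusted p = 0.0590). Tll1, a related protease, was at 24.5 and 36.4 TPM and Furin, a proprotein convertase, at 30.6 and 26.0 TPM, and neither passed with the line. Both passed with the spline (edgeR adjusted p = 1.82e-06 and 0.0130), and Tll1 was highest on day 10, at 68.3 TPM. Fam20c, the kinase that phosphorylates secreted matrix proteins, rose by 1.51 (SE 0.23, edgeR adjusted p = 0.000396), and was named after its values had been seen. Its step came between day 6 and day 8, at 5.44 and 13.2 TPM.

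In the FGF23 and phosphate axis, 8 of 13 genes were tested, 1 rose and 2 fell, beside 28.3% and 26.1% of all genes tested. Their median change was -0.000368. The receptor Fgfr1 rose from 39.0 to 96.9 TPM. The phosphate transporter Slc20a1 fell by 5.20 (SE 0.57, edgeR adjusted p = 7.99e-05), from 135 to 8.40 TPM, and the vitamin D receptor Vdr fell from 40.5 to 12.9 TPM. Ank, a carrier of pyrophosphate, was at 18.0 and 23.8 TPM, highest on day 6 at 28.9 TPM, and passed with the spline (edgeR adjusted p = 0.0235) and not with the line.

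The receptors on which sclerostin acts were expressed in cells with hardly any Sost. Of 4 partner genes tested, 3 rose and none fell, beside 28.3% and 26.1% of all genes tested. Their median change was 1.16. Lrp6 and Lrp5, co-receptors of Wnt, rose by 2.11 and 1.71, the latter from 13.4 to 50.5 TPM, and Lrp4, which binds sclerostin, rose from 6.22 to 7.95 TPM. Sostdc1, a secreted relative of Sost, was at 2.50 and 2.20 TPM with a peak of 12.3 TPM on day 6, and passed with the spline (edgeR adjusted p = 0.000421) and not with the line. Among the partners of podoplanin, 5 of 6 were tested, 2 fell and none rose, with a median change of -0.57. Those that fell were Cd44 and Msn, the moesin that links membrane proteins to actin, which went from 1033 to 292 TPM.

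The other osteocyte-associated genes did not move in 1 direction. All 8 were tested, 4 rose and 4 fell, beside 28.3% and 26.1% of all genes tested. Their median change was -0.20. Mmp14, a membrane protease needed for osteocyte processes, rose from 165 to 432 TPM and Gja1, the connexin of osteocyte gap junctions, from 75.5 to 154 TPM, while Cd44 and the actin regulator Dstn (587 to 223 TPM) fell. Mef2c, a transcription factor that acts on the Sost enhancer, rose from 2.64 to 24.5 TPM, and Dkk1, a Wnt antagonist, from 0.0827 to 1.47 TPM, both named after their values had been seen. Of 8 transcription factors of the osteoblast lineage, 4 rose and 3 fell, with a median change of -0.12. Runx2 rose by 0.49 (SE 0.16, edgeR adjusted p = 0.0232), Atf4, a factor of the stress response, fell from 156 to 101 TPM and Msx2, a homeobox factor, from 129.9 to 12.9 TPM.

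Of the 7 osteoblast markers, 5 rose and none fell, beside 28.3% and 26.1% of all genes tested. Their median change was 1.92. Col1a1 rose from 1526 to 4263 TPM and Col1a2 from 983 to 4114 TPM. Bglap2, an osteocalcin gene, was at 5.11, 11.9, 31.0, 163 and 274 TPM from day 10 to day 18. Its largest steps thus came after the first step of Ibsp. Reads of Bglap2 and its near-identical neighbour Bglap can be divided between them.

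**Figure D4:**
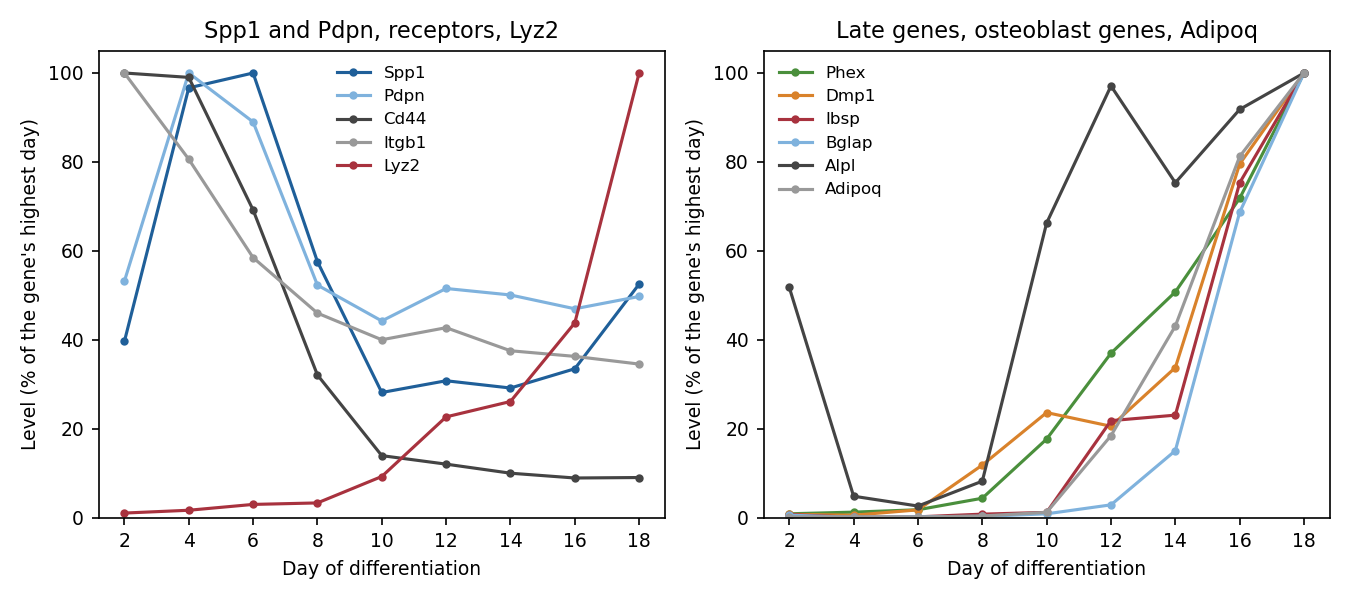
Level against day as a percentage of each gene's highest day in TPM, with Spp1, Pdpn, their receptors and partners Cd44 and Itgb1 and the myeloid gene Lyz2 on the left, and Phex, Dmp1, Ibsp, Bglap, Alpl and Adipoq on the right. Cd44 and Itgb1 are highest on day 2, Spp1 on day 6 and Lyz2 on day 18, and Ibsp and Adipoq both step up on day 12.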

How the data were processed

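RNA from cultured mouse calvarial cells was amplified, sequenced and deposited as 27 profiles over 9 days. The authors aligned the reads to the NCBIM37 transcriptome with Bowtie 0.12.9 and quantified genes with RSEM (1.2.8 per the submitters' processing notes). The expected counts deposited are estimated reads per gene, not normalized. The TPM and FPKM deposited by the authors are their length-corrected forms. Here the TPM of each profile were rescaled so that all profiles shared an upper quartile of nonzero values (24.0), by a factor of 0.933 to 1.11. The counts of the 3 profiles of a day were summed and rounded, because these carry 1 barcode and, over genes with whole-number counts, differed by no more than sampling noise (chi-square per degree of freedom 0.999 to 1.02). Over all genes, including those with reads divided by RSEM, it was 1.21 to 1.45, above sampling noise on every day. All members have whole-number counts.

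A straight line in day was fitted with edgeR 4.0.16 (R 4.3.3), with upper-quartile factors, the filterByExpr filter at a count of 10 and Benjamini-Hochberg adjustment at 0.05, and the script was tested on simulated data. Ratios and intervals used scipy 1.17.1. Likeness used log2(TPM + 0.5) for members that reached 5 TPM. Genes named are the 8 members, the genes of highest mean level from each list (2 to 4 of them), genes within 500 kb of the cluster and the 3 nearest courses of each member. Genes outside this rule (Fam20c, Mef2c, Dkk1, Bglap, Alpl, Sp7, Calcr and Dcstamp) were chosen after their values had been seen. Symbols came from the annotation of NCBIM37, for 37205 of 37991 identifiers. Alternatives were TMM factors, DESeq2 1.42.0, other filters, unsummed profiles, replicates or days left out, a spline, early against late days, and other thresholds and units. The members and lists were chosen with earlier results of these data known. Deviations of profiles that share a replicate number were unrelated (mean correlation 0.00695, and -0.00348 between numbers), and the numbers mark lanes, so they were not taken as pairs.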

Additional observations from a re-analysis of the deposited data

How the results depend on the processing

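Of 282 recomputed values for 26 results, 260 led to the same call and direction, or to a value within the limit set for it. The limit for counts was wide, so that 4 and 6 members called, or 8510 and 10881 genes called, were taken as the same. The onsets of Spp1 and Pdpn could not move, since both lay far above every threshold on all days. The tally therefore does not measure how robust the results are. With the filter lowered to a single count, which took in all 8 members, 6 were called. Elsewhere the number of members called, 4 of 5 tested in the main fit, was 4 or 5. It was 5 with the 27 profiles as separate samples, both without and with the replicate block, where Spp1 was added (-1.18 in both, edgeR adjusted p = 0.00192 and 0.00286), although these profiles are not independent libraries. Genes called over the whole table numbered 8510 of 15659, against 10754 of 13835 without and 10881 of 14244 with the replicate block. The share of all genes called was thus higher with separate profiles. With the filter at a single count it was lower, at 8703 of 23138 genes. The member counts are to be read beside these shares. For Spp1 the natural spline gave a fitted change of 0.0014 between the first and last day where the line gave -1.17, and the cause was not tested. When the filter was lowered to a single count, Sost and Fgf23 were called higher (edgeR adjusted p = 0.00591 and 0.0141) on 13 and 4 counts in all, and Mepe was not (edgeR adjusted p = 0.321).

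The onset of Phex was day 6 at 0.5 TPM and day 10 at 2 and at 5 TPM. That of Dmp1 was day 8 at 0.5 TPM and by counting intervals, day 14 at 2 TPM and with FPKM as deposited, and day 16 at 5 TPM. That of Ibsp was day 8 at 0.5 TPM and day 10 with TPM as deposited, and ranged from day 10 to day 12 without 1 replicate. At 0.5 TPM, 5 members were expressed on day 8. Sost, Fgf23 and Mepe had no onset under any threshold or unit tried. The first day at 25% of the highest level was day 2 for Spp1, day 14 for Dmp1 and day 12 for Phex, and Phex reached 50% on day 16 in CPM with TMM factors. The causes were not tested. Depth limits Sost, Fgf23, Mepe and the early days of Ibsp, Dmp1 and Phex.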

Other observations

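Ibsp was not alone in being higher on day 2 than on day 4. Alpl, the alkaline phosphatase that frees phosphate for mineral, had 9.13 TPM on day 2 and 0.857 on day 4, and was back at 11.7 on day 10. Sp7, a transcription factor of committed osteoblasts, had 32.3 and 5.18 TPM on days 2 and 4. Of the 2 osteocalcin genes, Bglap had 1.24 and 0.224 TPM, and Bglap2 went the other way, with 0.795 and 1.76 TPM. Since reads can be divided between these neighbours, the fall of Bglap alone does not show a fall of osteocalcin. Col1a1, at 1526 and 2237 TPM, and Col1a2, at 983 and 1499 TPM, were higher on day 4. By day 18 Ibsp, Alpl and Bglap stood above their day 2 levels, at 78.4, 17.6 and 208 TPM, and Sp7 below it, at 10.6 TPM. These genes were picked for this pattern after their values had been seen, each day is 1 library, and the pattern was not tested.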
